A study of Mus musculus with 14 samples.

Results

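The 10 genes Cpt1a, Cpt1b, Cpt2, Acadvl, Acadl, Acadm, Acads, Hadh, Hadha and Hadhb encode the carnitine shuttle and the core enzymes of mitochondrial fatty acid oxidation. They were taken by gene symbol from the deposited table of 23282 genes, and each symbol had exactly 1 row. Epididymal white adipose tissue (eWAT) of wild-type male C57BL/6J mice was profiled by QuantSeq 3′-mRNA sequencing, which reads the 3′ end of polyadenylated transcripts. The mice were bought at 4 weeks of age and received a normal diet (control) or a Western diet (WD), rich in fat and cholesterol, for 20 weeks. The 14 libraries were 4 controls of batch 1, 5 WD libraries of batch 1 and 5 controls of batch 2. The labels do not say what a batch is, and no WD library belongs to batch 2.

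Long-chain fatty acids cross into mitochondria as carnitine esters. The outer-membrane enzyme carnitine palmitoyltransferase 1 makes these esters and is inhibited by malonyl-CoA, and carnitine palmitoyltransferase 2 turns them back into acyl-CoA on the inner membrane. In the matrix, each turn of beta-oxidation starts with an acyl-CoA dehydrogenase chosen by chain length, continues with hydration and a further dehydrogenation, and ends with release of acetyl-CoA. White adipocytes mainly store and release fatty acids and oxidise few of them, whereas brown adipocytes and muscle are strong oxidisers.

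Total counts per library ranged from 10278970 to 13712254, and a floor of 3 counts corresponded to 0.212 to 0.324 CPM. All levels are in CPM, counts per 1000000 counts after TMM scaling. All 10 adipocyte markers had counts in every library. Control 1 of batch 1 stood apart, since 12 epididymis genes took 13.4% of its counts and at most 0.00536% of those of any other library. Control 4 of batch 1 had counts for 7999 genes, against 10903 to 13780 in the others. Comparisons with the batch 1 controls were also computed without these libraries. The labels do not state that a pair of libraries shares an animal, and p-values measure the spread between libraries only.

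The upstream DNA of Cpt1a and Cpt2, the members with a called difference, and the DNA between Hadhb and Hadha, which start head to head, are printed 5′ to 3′ on the strand of the first-named gene. They are RefSeq promoter windows of GRCm38.p6, 250 bases before the RefSeq start site, cut to the longest stretch outside GENCODE exons. GENCODE starts Cpt1a earlier, at chr19:3322334, so the printed Cpt1a stretch lies within that gene model. Capitals mark AGGTCA, a motif bound by nuclear receptors such as the PPARs, and GGGCGG, the GC box, on either strand.
Cpt1a, chr19:3323051-3323284 (+): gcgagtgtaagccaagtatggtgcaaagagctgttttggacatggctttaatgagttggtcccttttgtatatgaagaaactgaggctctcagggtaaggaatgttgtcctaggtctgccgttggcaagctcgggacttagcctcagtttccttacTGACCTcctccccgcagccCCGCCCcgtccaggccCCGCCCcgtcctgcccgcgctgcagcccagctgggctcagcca
Cpt2, chr4:107923611-107923839 (-): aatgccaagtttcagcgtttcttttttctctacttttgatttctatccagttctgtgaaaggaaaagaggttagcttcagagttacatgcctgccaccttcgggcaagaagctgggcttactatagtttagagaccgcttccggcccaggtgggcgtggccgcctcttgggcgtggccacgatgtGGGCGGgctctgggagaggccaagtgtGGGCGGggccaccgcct
Hadhb and Hadha, chr5:30155163-30155247 (+): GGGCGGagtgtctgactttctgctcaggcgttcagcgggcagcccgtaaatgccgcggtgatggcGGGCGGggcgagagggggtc
The start sites of Hadha and Hadhb lie 273 bases apart. In the whole windows, AGGTCA occurred in 3 of the 9 members with a RefSeq promoter (Cpt1a, Acadvl and Acadm) and in 14% of all 32851 promoters of that length. GGGCGG occurred in 7 of 9 members and in 32.7% of promoters. The windows of Hadha and Hadhb share 228 bases, so these 2 members are not separate counts. The longer TCAAGGTCA, which contains AGGTCA, occurred in 0 of 9 members and in 0.387% of promoters, and AGGTCA repeated with a spacing of 1 base in 0 of 9 and in 0.0335%. These counts describe letters in short windows.

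Between genes, 3′ counts do not grow with transcript length, so levels were ordered directly as CPM. In the batch 2 controls Acadl (524 ± 117 CPM, SD, n = 5) and Hadh (480 ± 82.6) were the most abundant and overlapped in range. Acadm (267 ± 15.5) and Hadha (256 ± 50.4) came next, followed by Cpt2 (153 ± 48.1), Acads (129 ± 36), Hadhb (122 ± 20.3) and Acadvl (109 ± 22.1), whose neighbours did not differ beyond their spread. Cpt1a (50.5 ± 14.4) lay below all of these, and Cpt1b (0.324 ± 0.538) was near the floor. In the WD libraries the order was Acadl (384 ± 63.9 CPM, SD, n = 5), Hadha (339 ± 103), Acadm (262 ± 44.4), Hadh (241 ± 108), Hadhb (120 ± 29.4), Acads (95.1 ± 44.8), Cpt1a (88.7 ± 11.6), Cpt2 (77.4 ± 17.5), Acadvl (63.3 ± 31.3) and Cpt1b (6.17 ± 7.72). The plot of the members by library shows the same values on the log2(CPM + 1) scale.

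**Figure D1:**
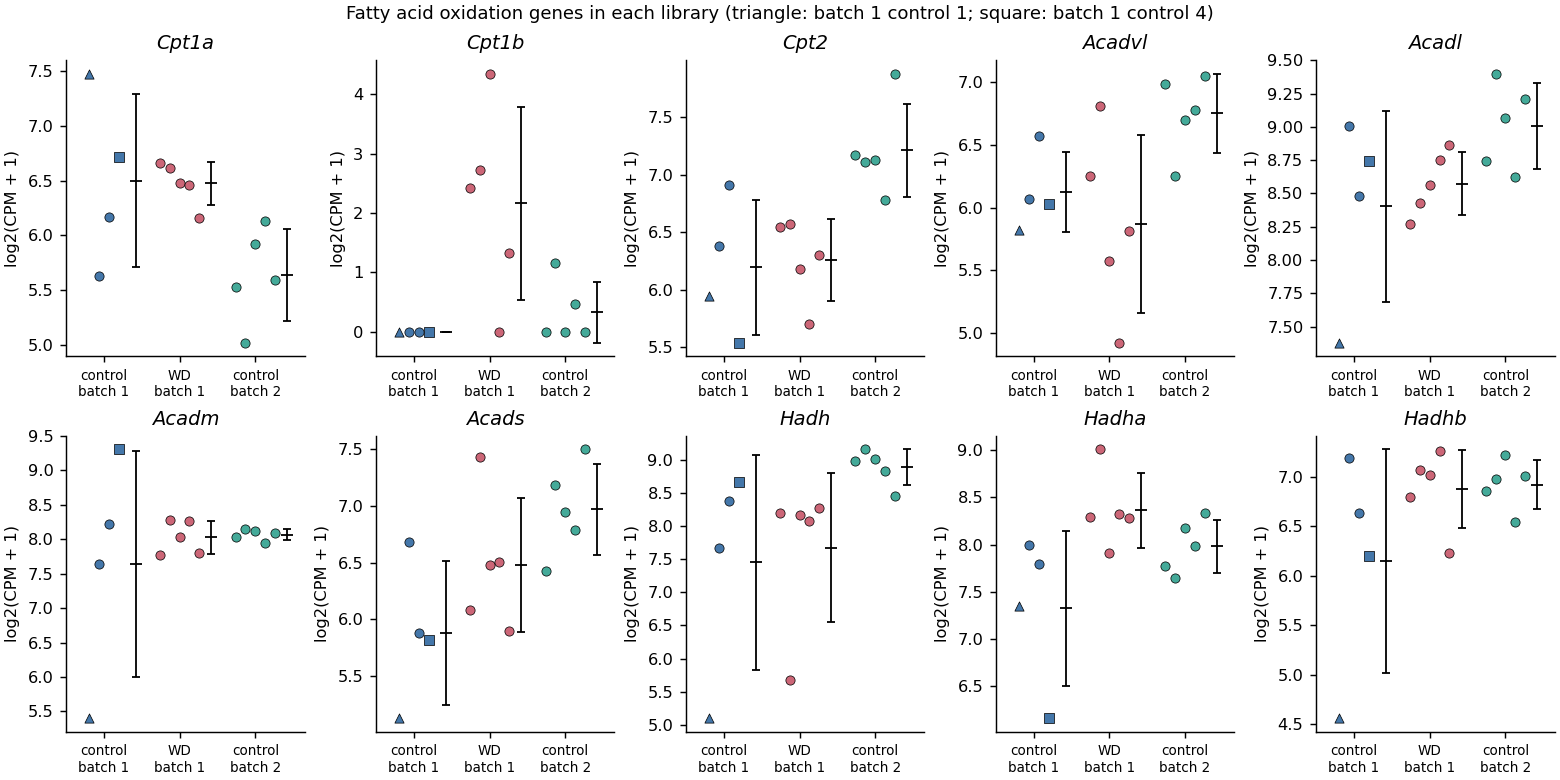
Log2(CPM + 1) of each of the 10 genes in each of 14 libraries, with 1 panel per gene and its own vertical axis; points are libraries and the bars beside them the mean ± SD. Control 1 of batch 1 (triangle) was the lowest library for Acadl, Acadm, Acads, Hadh and Hadhb and the highest for Cpt1a.

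Within batch 1, the only comparison in which diets share a batch, no member passed the test between WD and control. Across all 12157 genes tested by edgeR's quasi-likelihood test with Benjamini-Hochberg adjustment, 0% had a false discovery rate (FDR) under 0.05, and 5.17% had an unadjusted p under 0.05. Of the 10 members, 2 (Hadha and Cpt1b, both higher in WD) had an unadjusted p under 0.05. Cpt1b, at 0 in all batch 1 controls, passed the filter on low counts only through its WD libraries. The median log2 fold change was 0.03 for the members and 0.03 for all genes. In 3.87% of all genes the WD and control libraries did not overlap, and this was so for 0 of the 10 members. DESeq2 called 114 genes and 1 member (Cpt1b) in the same libraries. Without controls 1 and 4, edgeR called 108 genes and 0 members.

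Hadha encodes the alpha subunit of the mitochondrial trifunctional protein, which hydrates and oxidises long-chain intermediates. Its level was 162, 254, 221 and 70.7 CPM in controls 1 to 4 of batch 1, and 312, 515, 240, 319 and 310 CPM in WD 1 to 5. All WD libraries but WD 3 lay above every control of the batch. The log2 fold change was 0.94 ± 0.38 (SE, unadjusted p = 0.0296, FDR = 0.849 by edgeR). It was 0.66 without control 4 and 0.52 without controls 1 and 4. In the batch 2 controls Hadha ranged from 199 to 322 CPM, and the log2 fold change of WD against them was 0.39 ± 0.22 (SE, FDR = 0.391 by edgeR).

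Hadhb encodes the beta subunit, the thiolase of the same protein. It was at 22.6, 145, 98.8 and 72.7 CPM in controls 1 to 4 of batch 1, 110, 134, 128, 152 and 74.2 CPM in WD 1 to 5, and 92.4 to 148 CPM in the batch 2 controls. The groups overlapped in all comparisons, and the log2 fold change of WD was 0.49 ± 0.44 (SE) against batch 1 and -0.04 ± 0.22 against batch 2. Although their start sites are adjacent, the counts of Hadha and Hadhb were not in a fixed ratio. Hadha had between 0.972 times (control 4 of batch 1) and 7.18 times (control 1 of batch 1) the counts of Hadhb. In the other libraries the ratio lay between 1.60 and 4.18. The mean log2 ratio was 1.5 ± 0.51 (SD, n = 5) in WD, 1.19 ± 1.21 (n = 4) in batch 1 control and 1.07 ± 0.32 (n = 5) in batch 2 control. The test did not pass between WD and batch 1 control (difference 0.30, two-sided exact permutation p = 0.611) or between WD and batch 2 control (difference 0.43, exact permutation p = 0.151). Adjusted over 6 ratio tests, these exact permutation p-values were 0.733 and 0.226.

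Cpt1a encodes the liver form of carnitine palmitoyltransferase 1, the rate-limiting entry to oxidation, and lies at chr19:3323301-3385733 (+). Its level was 100, 97.6, 88.1, 87.1 and 70.6 CPM in WD 1 to 5, against 45.1, 31.4, 59.6, 69.1 and 47.3 CPM in batch 2 controls 1 to 5. Every WD library lay above every batch 2 control, with WD 5 and batch 2 control 4 close together. The log2 fold change was 0.80 ± 0.23 (SE, FDR = 0.0472 by edgeR), 1.74-fold higher in WD. The 4 batch 1 controls had 178, 48.5, 71.2 and 105 CPM and spanned the WD range, and the log2 fold change of WD within the batch was -0.19 ± 0.37 (SE, FDR = 1.00 by edgeR). Without control 1, the highest library of all, it was 0.25, and without controls 1 and 4 it was 0.57 (FDR = 0.648 by edgeR).

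Cpt2 encodes carnitine palmitoyltransferase 2 and lies at chr4:107903982-107923589 (-). Its level was 92.5, 93.8, 71.7, 51.0 and 77.9 CPM in WD 1 to 5 and 143, 138, 139, 109 and 235 CPM in batch 2 controls 1 to 5. Here every WD library lay below every batch 2 control. The log2 fold change was -1.0 ± 0.24 (SE, FDR = 0.0168 by edgeR), a level 1.99-fold lower in WD. The batch 1 controls had 60.9, 82.3, 119 and 45.5 CPM and the log2 fold change of WD within the batch was 0.00 ± 0.35 (SE, FDR = 1.00 by edgeR). Without controls 1 and 4 of batch 1 it was -0.38.

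Cpt1a and Cpt2 thus differed in opposite directions between WD and the batch 2 controls, a comparison that does not separate diet from batch. Within batch 1 neither was called. The batch 2 controls also differed from the batch 1 controls, on the same diet, by -1.0 ± 0.38 for Cpt1a and 0.98 ± 0.33 for Cpt2 (SE, neither called). As a description made after the values were seen, with no test, Cpt1a had 0.906 to 1.71 counts for each count of Cpt2 in the WD libraries and 0.201 to 0.634 in the batch 2 controls. The batch 1 controls lay on both sides, at 0.589 and 0.597 in controls 2 and 3 and at 2.91 and 2.30 in controls 1 and 4.

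**Figure D2:**
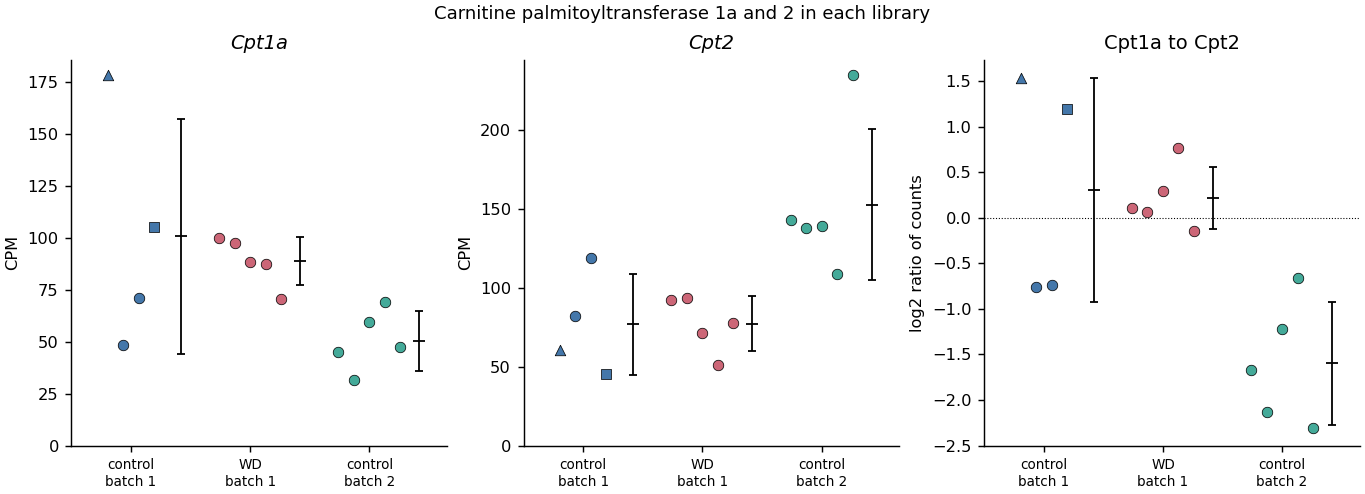
Cpt1a and Cpt2 in CPM and the log2 ratio of their counts, with points for the 14 libraries and bars for the mean ± SD of each group. The 5 WD libraries lie above the batch 2 controls for Cpt1a and below them for Cpt2, and the batch 1 controls spread across both (triangle, control 1; square, control 4).

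Of all 12070 genes tested between WD and batch 2 control, 6.40% were called at an FDR under 0.05 (3.93% higher in WD and 2.48% lower). An unadjusted p under 0.05 was seen in 17.7%. Among the 10 members, 1 was called higher (Cpt1a) and 1 lower (Cpt2), and 6 had an unadjusted p under 0.05. In 8.79% of all genes the libraries of the groups did not overlap, against 3 members (Cpt1a, Cpt2 and Hadh). The median log2 fold change was -0.24 over the members. Diet and batch cannot be told apart in this comparison, and in bulk tissue fewer cells of a type cannot be told apart from less RNA per cell.

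The call of Cpt1a was close to the threshold. It held in 7 of 19 alternatives (FDR 0.0132 to 0.366) and was lost when any of WD 1, WD 2, WD 3, WD 4 or batch 2 controls 1, 2, 3 or 5 was left out. The call of Cpt2 held in 17 of 19, and was lost without batch 2 control 5 (log2 fold change -0.79, FDR = 0.0535 by edgeR) and in the fit over all 3 groups (FDR = 0.134 by edgeR). The members' log2 fold changes against the batch 2 controls ranged with these alternatives from 0.67 to 0.94 for Cpt1a and from -1.10 to -0.79 for Cpt2.

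Hadh encodes the dehydrogenase that oxidises short- and medium-chain 3-hydroxyacyl-CoA. Its level was 294, 50.2, 286, 267 and 309 CPM in WD 1 to 5, against 504, 572, 515, 455 and 352 CPM in the batch 2 controls. All WD libraries lay below all batch 2 controls, and WD 2 was far below the other WD libraries. The log2 fold change was -1.0 ± 0.34 (SE, FDR = 0.109 by edgeR), which did not pass. Without WD 2 it was -0.74 with an FDR of 0.00871 by edgeR. The batch 1 controls were at 33.3, 203, 332 and 403 CPM, with control 1 as low as WD 2, and the log2 fold change within the batch was -0.01 ± 0.61 (SE).

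The 4 acyl-CoA dehydrogenases, which open each turn of the cycle for different chain lengths, did not pass in any comparison. Acadvl, the very-long-chain enzyme, was at 29.2 to 111 CPM in WD, 55.6 to 94.3 in batch 1 control and 75.3 to 132 in batch 2 control, and its log2 fold change was -0.80 ± 0.30 (SE) against batch 2 and -0.15 ± 0.39 against batch 1. Acadl, the long-chain enzyme, gave -0.46 ± 0.20 and 0.07 ± 0.33, and Acads, the short-chain enzyme, -0.45 ± 0.28 and 0.61 ± 0.41. Acadm, the medium-chain enzyme, had the smallest ratio of highest to lowest level of any member with counts in every batch 2 control, 1.16 (244 to 284 CPM), and gave -0.04 ± 0.17 and -0.16 ± 0.54. In batch 1 its controls spanned 15.4-fold, from 41.3 CPM in control 1 to 635 CPM in control 4, while the WD libraries lay between 217 and 309 CPM. Within batch 1 the sign of these small differences depended on single controls, with Acadl at -0.17 without control 1 and Acadm at 0.54 without control 4. Without WD 2, Acadvl (-1.09, FDR = 0.0134 by edgeR) and Acads (-0.77, FDR = 0.0471) passed against batch 2 as well. The 3′ ends of Acadvl and Hadha overlap those of Dvl2 and Garem2 on the other strand, and the processed pseudogene Gm15793 lies within Acadl. The sources used here do not state that counting used strand, so reads from the shared stretches cannot be told apart.

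Cpt1b encodes the muscle form of carnitine palmitoyltransferase 1, also the form of brown adipocytes, and lies at chr15:89416405-89425862 (-). It had 0 counts in all 4 batch 1 controls. The WD libraries had 62, 52, 262, 0 and 18 counts, and the batch 2 controls 0, 13, 0, 5 and 0. Cpt1b was thus above the floor in 4 of 5 WD and 2 of 9 control libraries. The WD mean of 6.17 ± 7.72 CPM (SD, n = 5) was at least 23.7-fold higher than 3 counts per library in the batch 1 controls (0.261 CPM), and at least 11-fold higher without WD 3. The test did not pass against batch 1 (FDR = 0.554 by edgeR) or batch 2 (FDR = 0.183), whereas DESeq2 called both (FDR = 0.0215 and 0.0448). With all batch 1 controls at 0, Cpt1b passed the filter on low counts there only through its WD libraries. It was not tested without WD 2 against batch 1, or between the control groups. The batch 1 fold and calls therefore add no separate support for a difference. Even in WD 3, Cpt1b had 0.220 counts for each count of Cpt1a. The log2 ratio of Cpt1b to Cpt1a, with 0.5 added to each count, was -5.48 ± 3.37 (SD, n = 5) in WD, -11.03 ± 0.69 (n = 4) in batch 1 control and -8.56 ± 2.56 (n = 5) in batch 2 control. WD differed from batch 1 control by 5.54 (two-sided exact permutation p = 0.0317, adjusted over 6 tests p = 0.190) and from batch 2 control by 3.08 (exact permutation p = 0.151). The first difference thus did not pass after adjustment, and its unadjusted p stayed under 0.05 only without WD 4 (6.95, exact permutation p = 0.0286) when 1 library was left out.

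Markers of tissues known for Cpt1b were low but present. The 8 skeletal muscle genes summed to 58.8, 229, 125, 24.1 and 93.7 CPM in WD 1 to 5, 20.5 to 216 in batch 1 control and 114 to 193 in batch 2 control. Within this list, Myh4, a fast myosin heavy chain named after its values were seen, was at 0 in all 4 batch 1 controls and averaged 5.25 CPM in WD and 0.794 CPM in batch 2 control, whereas Acta1, the skeletal actin, averaged 110 CPM in batch 1 control, 51.6 in WD and 71.6 in batch 2 control. The 6 brown or beige adipocyte genes summed to 34.2 to 92.2 CPM in WD, 12.4 to 20.3 in batch 1 control and 19.8 to 43.3 in batch 2 control. Ucp1, the uncoupling protein that defines brown fat, was at 0 in all 4 batch 1 controls and reached at most 1.29 CPM in WD and 3.32 CPM in batch 2 control. Cox8b, a cytochrome oxidase subunit of the same list also named after its values were seen, lay at 18.6 to 52.8 CPM in WD, 2.00 to 13.9 in batch 1 control and 9.15 to 20.9 in batch 2 control. Its log2 fold change was 2.43 ± 0.73 (SE, unadjusted p = 0.00554, FDR = 0.530 by edgeR) against batch 1 and 1.14 ± 0.36 (FDR = 0.0806 by edgeR) against batch 2. The rest of the list did not all go this way. Elovl3 averaged 2.29 CPM in batch 1 control, 0.360 in WD and 0.336 in batch 2 control, and Dio2 0, 0.333 and 1.26. Cidea averaged 1.67, 6.33 and 8.86 CPM in the same order, and Cox7a1 6.15, 7.92 and 5.19. In each comparison 3 of the 6 genes were tested. None of the tested genes of these lists was called in any comparison by edgeR. The part of such cells in the Cpt1b counts was not tested. Cpt1b is overlapped on its strand by the GENCODE gene model Gm44502, which also spans most of the neighbouring Chkb, and reads of that model cannot be told apart from those of Cpt1b.

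The control groups, which had the same diet, were also compared, and no member passed. For batch 2 against batch 1 control, the log2 fold change was -1.0 ± 0.38 (SE) for Cpt1a, 0.98 ± 0.33 for Cpt2, 1.04 ± 0.34 for Acads, 0.98 ± 0.52 for Hadh and 0.63 ± 0.26 for Acadvl. The lowest FDR of the 9 members tested was 0.475 by edgeR, 0% of 12106 genes were called, and DESeq2 called 111 genes and 0 members. An unadjusted p under 0.05 was found for 4 members and 7.39% of all genes, and 0 members and 5.29% of all genes did not overlap. The median log2 fold change of the 9 members was 0.53. Without control 1 of batch 1, Cpt1a gave -0.58, Cpt2 0.89, Acads 0.84, Hadh 0.61 and Acadvl 0.54. Without controls 1 and 4, Cpt1a gave -0.24 ± 0.32, Cpt2 0.60 ± 0.29, Acads 0.69 ± 0.31, Hadh 0.85 ± 0.26 and Acadvl 0.45 ± 0.27 (SE), so that the size of the Cpt1a difference rested on these libraries. Each pair of comparisons in the plot of fold changes shares a group of libraries, so their values are not independent of each other.

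**Figure D3:**
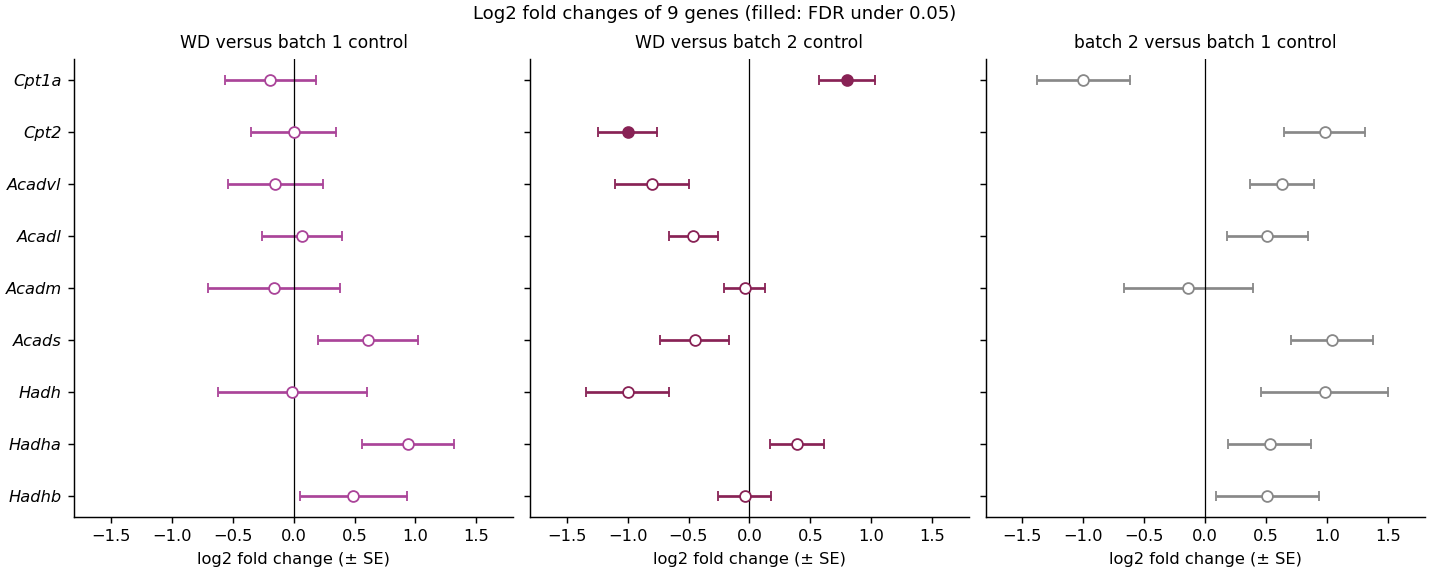
Log2 fold changes ± SE from edgeR for 9 genes in 3 comparisons, with filled points at an FDR under 0.05; Cpt1b is left out because all batch 1 controls were at 0. Only Cpt1a (0.80) and Cpt2 (-1.0) are filled, both in WD versus batch 2 control, and the batch 2 versus batch 1 controls gave -1.0 and 0.98, which became -0.24 and 0.60 without controls 1 and 4 of batch 1.

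Summed levels of cell type markers moved with the groups. The 10 adipocyte markers summed to 26657 to 40246 CPM in WD, 57757 to 69454 in batch 2 control, and 6643, 52259, 50546 and 32295 in controls 1 to 4 of batch 1. Against batch 2, 8 of the 10 were called lower in WD, such as Adipoq (-1.40 ± 0.19, adiponectin), and 1 (Lep, leptin) higher. Of all genes, 2.48% were called lower and 3.93% higher. The 10 macrophage markers summed to 1577 to 2426 CPM in WD, 318 to 663 in batch 2 control and 272 to 1569 in batch 1 control. Of these, 8 were called higher in WD than in batch 2 control, with Adgre1, the macrophage marker F4/80, at 2.70 ± 0.24. Batch 2 against batch 1 control, on the same diet, gave positive values for 10 of 10 adipocyte markers (median 0.88, Adipoq 1.23 ± 0.62). It gave negative values for 9 of 10 macrophage markers (median -0.49, Adgre1 -0.78 ± 0.53), and 0 of either list were called. Controls 1 and 4 of batch 1 were included in these values. Within batch 1, 0 of either list were called by edgeR. There the adipocyte markers had a median log2 fold change of -0.08, with 2 of 10 at an unadjusted p under 0.05 and Adipoq at -0.15 ± 0.56, and the macrophage markers were positive in 10 of 10 with a median of 1.5, 6 of them at an unadjusted p under 0.05. The 10 oxidation genes together made up 1578 to 1830 CPM in WD, 1832 to 2258 in batch 2 control, and 753 to 1878 in batch 1 control. As a percentage of the adipocyte sum, computed after the values were seen and without a test, they amounted to 3.98 to 6.87% in WD, 3.15 to 3.66% in batch 2 control, and 11.3, 3.09, 3.26 and 5.81% in controls 1 to 4 of batch 1. The ranges of WD and batch 2 control did not overlap for any of these 4 measures. The terms of the adipocyte sum differed unequally, so the percentage depends on the markers summed. Cfd averaged 1519 CPM in WD and 12606 in batch 2 control, and Adipoq 4771 and 12477. Fabp4, the largest term, averaged 16661 and 20626 CPM and was not called, and Lep averaged 4138 and 1675. The 4 mesothelial and 4 endothelial markers gave 0 calls in every comparison by edgeR. The part of cell composition in any single gene was not tested.

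**Figure D4:**
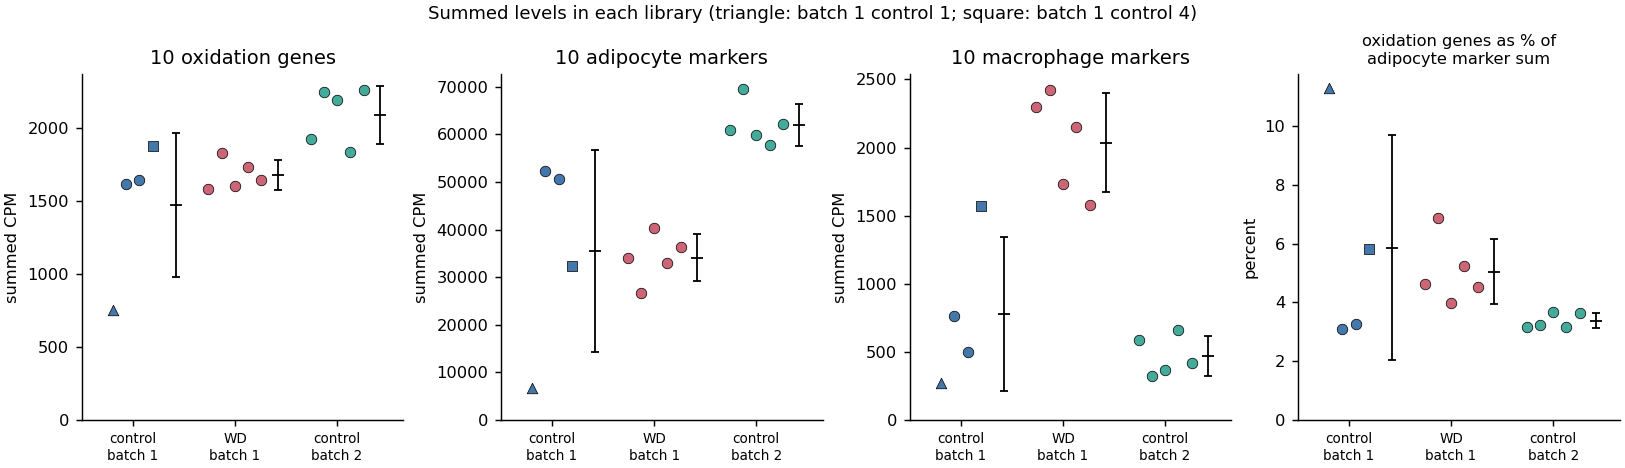
Summed CPM of the 10 oxidation genes, 10 adipocyte markers and 10 macrophage markers, and the first sum as a percentage of the second, in 14 libraries with the mean ± SD of each group. WD libraries lie below the batch 2 controls for the oxidation genes (1578 to 1830 against 1832 to 2258 CPM) and the adipocyte markers, and above them for the macrophage markers and the percentage.

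The other mitochondrial oxidation genes held 25 genes, of which 23 were tested. Within batch 1, 0 were called. Against batch 2, 1 was called higher and 6 lower in WD, where 3.93% and 2.48% of all genes were. The median log2 fold change was -0.54 against -0.00 for all genes. Acaa2, the medium-chain thiolase of the last step, was the gene called higher, at 283 ± 119 CPM in WD and 154 ± 18.6 in batch 2 control (SD, n = 5; log2 fold change 0.86 ± 0.25, FDR = 0.0467 by edgeR). The lowest p among those called lower were of Acad11 (-1.44 ± 0.22), Eci1 (-0.96 ± 0.16, an isomerase for unsaturated chains) and Acadsb (-1.07 ± 0.18, the dehydrogenase for short branched chains). Acsl1, the main acyl-CoA synthetase of adipocytes, was also called lower (-0.86 ± 0.19), from 2322 ± 443 to 1293 ± 222 CPM. Slc25a20, the carnitine-acylcarnitine carrier between Cpt1 and Cpt2, gave -0.55 ± 0.25 (FDR = 0.271 by edgeR), and Etfdh, which passes electrons to the respiratory chain, -0.44 ± 0.30. Within batch 1, Acad11, Eci1 and Acadsb gave -0.99 ± 0.47, -0.26 ± 0.36 and -0.03 ± 0.29. For batch 2 against batch 1 control they gave 0.43 ± 0.47, 0.69 ± 0.35 and 1.02 ± 0.25. Acaa2 and Acsl1 gave 0.68 ± 0.38 and -0.19 ± 0.39 within batch 1, and -0.20 ± 0.28 and 0.65 ± 0.39 between the controls. The median of the list between the controls was 0.43, with 17 of 23 genes higher in batch 2 and 0 called.

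Among 15 regulators, 0 were called higher against batch 2 (3.93% of all genes) and 2 lower (2.48%). These were Acacb (-1.32 ± 0.19, from 117 ± 17.2 to 47.1 ± 4.85 CPM), the acetyl-CoA carboxylase whose malonyl-CoA inhibits carnitine palmitoyltransferase 1, and Acaca (-1.16 ± 0.21), the carboxylase of fatty acid synthesis. The nuclear receptors Ppara (-0.89 ± 0.41) and Pparg (-0.70 ± 0.29) and the coactivator Ppargc1a (-0.54 ± 1.07) did not pass. Of 12 PPAR target genes 10 were tested and 2 called higher, with Pdk4, a kinase that restrains pyruvate oxidation, at 22.4 ± 9.39 against 6.27 ± 3.24 CPM (1.82 ± 0.49, FDR = 0.0329 by edgeR) and Ucp2, an inner-membrane carrier abundant in macrophages, at 2.15 ± 0.40. Within batch 1, Pdk4 was at 22.4 ± 18.4 CPM in control (n = 4) and its log2 fold change was 0.00 ± 0.69. There Ucp2 gave 0.76 ± 0.43, Acacb -1.07 ± 0.57 and Acaca -0.16 ± 0.40. For batch 2 against batch 1 control, Pdk4 gave -1.84 ± 0.76, Ucp2 -1.41 ± 0.45, Acacb 0.24 ± 0.56 and Acaca 0.98 ± 0.37.

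In peroxisomes, which shorten very long chains, 3 of 11 genes tested from a list of 13 were called lower against batch 2, namely Scp2 (-0.84 ± 0.16), Abcd2 (-0.81 ± 0.16) and Abcd3 (-1.13 ± 0.25), and 0 higher. In the tricarboxylic acid cycle, which burns the acetyl-CoA, 4 of 17 genes were called lower, with the lowest p for Sdha (-0.82 ± 0.16), Dlst (-1.01 ± 0.21) and Idh3b (-0.91 ± 0.21), and Cs, citrate synthase, gave -0.61 ± 0.23 (FDR = 0.15). The list medians were -0.64 and -0.77, and 2.48% of all genes were called lower. No gene of the 5 lists was called within batch 1 by edgeR. An unadjusted p under 0.05 was found there for 5.17% of all genes. In the lists it was found for 1 of 23 other mitochondrial oxidation genes, 1 of 11 PPAR targets and 2 of 10 peroxisomal genes. It was found for 0 of 15 regulators and 0 of 17 genes of the cycle. The batch 1 medians were -0.19 for other mitochondrial oxidation genes, -0.36 for regulators, 0.13 for PPAR targets, -0.07 for peroxisomal genes and 0.08 for the cycle. Single genes departed from these medians, with Abcd3 at -1.01 ± 0.43, Scp2 at -0.42 ± 0.33 and Abcd2 at 0.01 ± 0.49. In the cycle, Sdha gave -0.18 ± 0.26, Dlst -0.14 ± 0.43 and Idh3b 0.09 ± 0.32 within batch 1. Between the controls, on the same diet, batch 2 was higher for 16 of 17 cycle genes (median 0.65) and 10 of 11 peroxisomal genes (median 0.50). An unadjusted p under 0.05 by edgeR was found there for 7 cycle genes, 0 peroxisomal genes and 7.39% of all genes, and 0 were called. Sdha gave 0.62 ± 0.23, Dlst 0.85 ± 0.38, Idh3b 0.99 ± 0.24, Scp2 0.40 ± 0.32, Abcd2 0.81 ± 0.50 and Abcd3 0.11 ± 0.34.

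**Figure D5:**
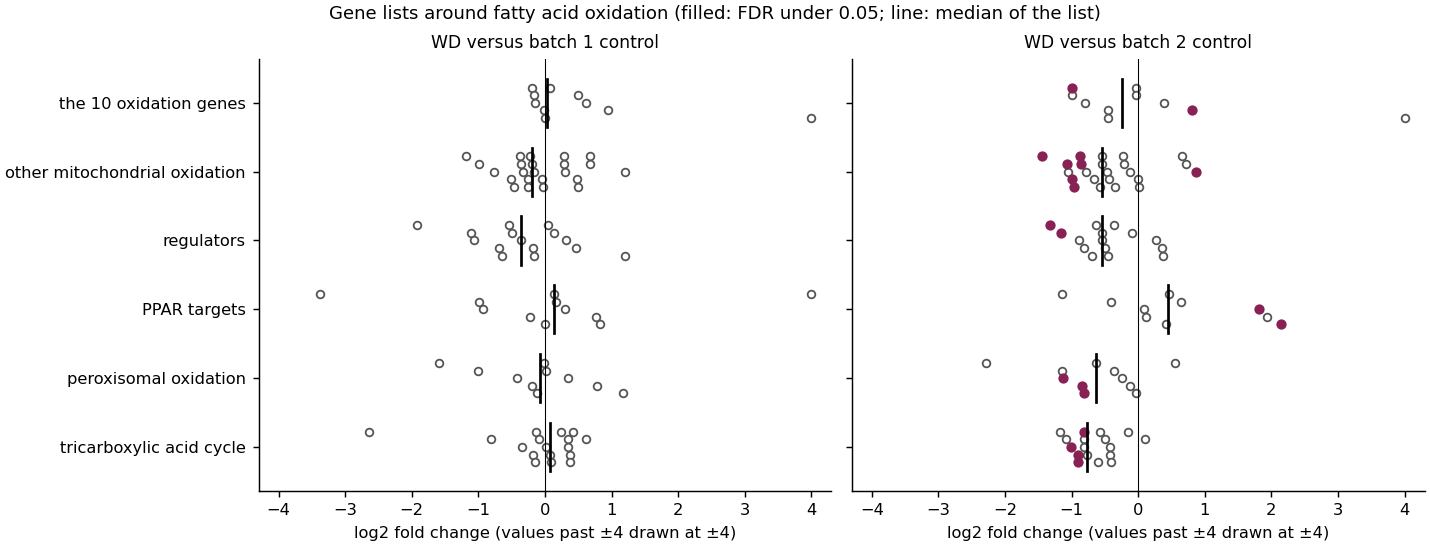
Log2 fold changes from edgeR of the genes of 6 lists in WD versus batch 1 control and WD versus batch 2 control, with 1 point per gene, filled at an FDR under 0.05, and a line at the median of each list; values past ±4, Cpt1b among them, are drawn at ±4. Filled points occur only against batch 2, mostly to the left of 0, with Cpt1a, Acaa2, Pdk4 and Ucp2 to the right.

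Each member's log2(CPM + 1) was scaled by its own mean and SD over the 13 libraries without control 1 of batch 1, and the members were averaged. Of 5731 genes compared, those that followed this average most closely were Sgta (r = 0.88), Rplp2 (0.88), Sod1 (0.87), Ypel5 (0.87) and Oplah (0.86). The members themselves did not move together. Between pairs of them r ranged from -0.80 (Acadl and Cpt1a) to 0.79 (Acadvl and Cpt2) over the same libraries. The libraries come from 3 groups with different levels, and these values are a description.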

How the data were processed

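QuantSeq 3′-mRNA libraries of eWAT from 14 mice were analysed. Alignment of the single-end reads used Bowtie2, and Bedtools coverage gave the reads per gene, with multiple alignments included. The deposited counts are whole numbers of reads per gene without normalization. The authors also deposited log2 values, made from TMM-scaled CPM with 1 added in edgeR. They differed from log2(CPM + 1) recomputed here by at most 0.0503 in the 10 genes. The submitters' processing notes name mm10 and also FastQC, and versions are not given in the sources used here. The paper's methods describe amplification of the library and do not mention molecular identifiers. Whether amplified copies were counted separately is therefore not known, and depth does not measure the spread between animals.

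Counts were tested with edgeR 4.0.16 (quasi-likelihood, TMM, edgeR's filter on low counts, no covariate, FDR under 0.05 over all genes tested) in R 4.3.3. Ratios within a library were compared with two-sided exact permutation tests, whose smallest p is 0.00794 in each comparison. The other tools were limma 3.58.1, DESeq2 1.42.0, and Python 3.11.15 with numpy 2.4.6, pandas 2.3.3, scipy 1.17.1 and matplotlib 3.10.9. The pipeline was tested on simulated data. Promoters came from RefSeq windows, where 9 of 10 genes matched, and overlaps from GENCODE vM21.

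The genes and lists were chosen with earlier results of these data known. Named genes were the 10 members, a fixed set of 13 genes from the other lists (1 of which is not reported here), up to 3 genes per list with the lowest p among those called, and the 5 genes most alike in level over 13 libraries among those with a mean log2(CPM + 1) of at least 4. Alternatives were other normalizations, filters, tools and sample sets, a replicate block, and leaving out libraries.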

Additional observations from a re-analysis of the deposited data

Results flagged for a closer look

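Hadh in WD 2 stood far from the other WD libraries, at a log2(CPM + 1) of 5.68 against 8.07 to 8.27 in the other 4. The gap to its neighbour was 0.920 of the range of the group. Of 36 groups of values examined (10 genes and a pair of ratios, each in 3 groups), 1 stood out in this way, where chance gives about 1.8. WD 2 also had the highest Hadha, Acads, Acadvl, Acadm and Cpt2 of the WD libraries, at 515, 172, 111, 309 and 93.8 CPM. For Acadm and Cpt2 the next library was close, at 306 CPM in WD 4 and 92.5 CPM in WD 1. The TMM factor of WD 2 (0.838) was the lowest of the WD libraries, and a lower factor raises every CPM of a library. Among the WD libraries, WD 2 had the lowest sum of adipocyte markers (26657 CPM) and the highest sum of brown or beige adipocyte genes (92.2 CPM).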

How the results depend on the processing

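Of 565 alternative values of the members' log2 fold changes, 515 kept their direction and side of the threshold, 14 lost a call, 6 gained a call and 30 changed sign. No value that changed sign was called in any fit. Against batch 1 control, Acadl was -0.01 with RLE size factors, with a minimum of 1 CPM for each library and with DESeq2. With limma-voom Acadm was 0.35 and Hadh 0.21, and without a batch term over all 9 controls Cpt1a was 0.28, Acadl -0.26 and Acads -0.08. Without controls 1 and 4 of batch 1, Cpt1a was 0.57, Acadl -0.18, Acadm 0.09 and Hadhb -0.03, and Acadm was 0.11 in batch 2 against batch 1 control. Leaving out each library in turn gave -0.44 to 0.25 for Cpt1a, -0.17 to 0.26 for Acadl, -0.52 to 0.54 for Acadm, -0.37 to 0.33 for Hadh and -0.45 to 0.03 for Acadvl in WD against batch 1, -0.11 to 0.02 for Acadm and -0.14 to 0.09 for Hadhb in WD against batch 2, and -0.51 to 0.59 for Acadm between the controls, where limma-voom gave 0.39.

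With a replicate block, Cpt1a was 0.05 and Acadm 0.41 in WD against batch 1, Acadm was 0.37 between the controls, and in WD against batch 2 1 member (Cpt2) and 594 genes were called. The labels do not state that the numbers pair the samples. The deviations of same-numbered libraries correlated by -0.0521 to 0.0780 over 13 pairs, which cannot show whether animals or preparations were paired.

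Genes called in WD against batch 1 were 0 in the reported fit, 114 with DESeq2 (1 of them a member, Cpt1b), 1 in the fit over 3 groups, 108 without controls 1 and 4, and 0 to 48 when 1 library was left out (48 without control 4). In WD against batch 2, 773 genes became 140 in the fit over 3 groups, with 0 members, and 1154 with DESeq2, with 4 members (Cpt1a, Cpt1b, Cpt2 and Hadh). Members called were 1 with library totals alone and with no filter, and 0 to 4 when 1 library was left out (0 without batch 2 control 5, 4 without WD 2). Without WD 2, 977 of 12436 genes were called. Between the controls, DESeq2 called 111 genes, the fit over 3 groups 1, the fit without controls 1 and 4 28, and those without 1 library 0 to 2.

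The Cpt1b to Cpt1a difference of WD against batch 1 was 4.71 to 6.95 when 1 library was left out (exact permutation p 0.0286 to 0.107) and 4.98 without controls 1 and 4 (exact permutation p = 0.238), and 2.25 to 4.48 against batch 2 (4.48 without WD 4, exact permutation p = 0.0317). With no count added, it had no value within batch 1, where all controls were at 0. The Hadha to Hadhb difference was -0.11 to 0.85 within batch 1 and -0.53 to 0.43 between the controls when 1 library was left out, and 0.08 between the controls without controls 1 and 4. The causes were not tested. Among the members, low counts limit Cpt1b, at 0 in 8 of 14 libraries. Among the other genes named they limit Ucp1, at 0 in 10, and Myh4, Elovl3 and Dio2, each at 0 in 9. They also limit Cidea, at 0 in 3, Ppargc1a, at 0 in 2, and Cox7a1, at 0 in 1.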
